A study of Mus musculus with 23 samples.

Results

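Uninjected tibialis anterior muscle of wild-type mice differed between lights on and lights off in 187 genes, among them 13 of 20 clock genes tested. Of the 14500 genes in the deposited table, 11439 had an FPKM (fragments relative to exon length and to the reads of the library) of at least 1 in 2 or more of the 7 libraries and were tested. At ZT12 88 genes were higher and 99 were lower. The largest rise was that of the clock gene Dbp, 11.4-fold, and the largest fall that of the clock gene Npas2, 10.6-fold. Npas2 was a gene of low level that reached 1 FPKM at ZT0 only. Fatty acid use genes such as Plin5, the sarcomere gene Lmod2 and the glucocorticoid-induced gene Arrdc2 were among those that rose, and the glycogen regulator Ppp1r3c, the immediate early genes Fos and Klf10 and the endothelial genes Klf2 and Apold1 among those that fell.

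The tibialis anterior is a fast muscle at the front of the lower leg. Zeitgeber time (ZT) counts hours from lights on, so that ZT0 is the start of the rest phase of a mouse and ZT12, at lights off, the start of its active phase. The 7 libraries came from female wild-type C57BL/6 mice fed ad libitum, and were made from total RNA of whole snap-frozen muscle that had received no injection, the sham condition of a study of chemical sympathectomy. At ZT0 there were 4 libraries, numbered 1 to 4, from mice 13 to 18 weeks old, and at ZT12 3 libraries, numbered 5 to 7, from mice 12 to 18 weeks old. They are 7 of 23 libraries in the series. The other wild-type muscles, 4 libraries at each time, had been injected repeatedly with 50 mg/kg 6-OHDA, which poisons sympathetic nerve terminals, and came from female C57BL/6 mice 12 to 16 weeks old. By their labelled ages the sham and injected ZT0 muscles came from different mice, since no age occurs in both groups. At ZT12 the only age in both is 12 weeks, and whether those muscles share an animal is not given. Since the labels do not describe how the replicates arose, the p values measure the spread between these libraries.

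The mammalian clock is a loop of transcription. Arntl (BMAL1) pairs with Clock or Npas2 on E-boxes and switches on the Per and Cry genes, whose proteins repress that pair. REV-ERB and ROR receptors act on ROREs to repress or activate Arntl, and Dbp, Tef, Hlf and Nfil3 compete for D-boxes. In muscle the loop is known to set the daily timing of genes for fuel use.

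The promoters below hold the letters of such elements and are shown because they belong to clock genes that passed the test. They are the 4 clock genes with the smallest p that held a searched motif in a window from 250 bases before to 50 bases after an annotated start (RefSeq, GRCm38.p6). Motifs, searched on both strands, were the E-box CACGTG, the D-boxes TTATGTAA and TTACGTAA, the RORE TAGGTCA and the cyclic AMP element (CRE) TGACGTCA. Capitals mark the matches.
Arntl, RORE, chr7:113207261-113207560, plus strand: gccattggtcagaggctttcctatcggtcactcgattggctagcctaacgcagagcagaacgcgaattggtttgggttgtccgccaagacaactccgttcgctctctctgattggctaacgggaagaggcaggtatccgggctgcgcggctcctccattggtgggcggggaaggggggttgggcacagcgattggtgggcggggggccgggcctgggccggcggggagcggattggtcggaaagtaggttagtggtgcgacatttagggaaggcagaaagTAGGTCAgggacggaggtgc
Per3, D-boxes, chr4:151044616-151044915, minus strand: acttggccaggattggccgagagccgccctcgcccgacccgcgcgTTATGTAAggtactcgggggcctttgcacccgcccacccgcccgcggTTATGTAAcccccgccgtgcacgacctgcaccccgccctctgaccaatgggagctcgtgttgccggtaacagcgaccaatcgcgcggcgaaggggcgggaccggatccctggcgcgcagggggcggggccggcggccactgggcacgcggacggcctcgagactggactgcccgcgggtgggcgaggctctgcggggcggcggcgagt
Per1, E-box, chr11:69098699-69098998, plus strand: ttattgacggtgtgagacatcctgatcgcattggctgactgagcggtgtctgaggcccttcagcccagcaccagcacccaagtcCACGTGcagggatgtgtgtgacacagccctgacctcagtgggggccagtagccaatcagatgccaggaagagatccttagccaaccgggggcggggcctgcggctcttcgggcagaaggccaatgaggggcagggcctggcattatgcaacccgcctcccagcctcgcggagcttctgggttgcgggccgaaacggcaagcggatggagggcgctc
Ciart, E-boxes, chr3:95882179-95882478, minus strand: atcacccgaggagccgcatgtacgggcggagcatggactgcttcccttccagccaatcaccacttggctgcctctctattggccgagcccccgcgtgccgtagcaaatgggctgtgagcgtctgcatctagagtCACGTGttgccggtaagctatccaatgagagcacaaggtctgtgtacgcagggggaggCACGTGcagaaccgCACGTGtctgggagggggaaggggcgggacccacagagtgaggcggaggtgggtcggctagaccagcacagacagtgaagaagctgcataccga

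The RORE of Arntl began 30 bases after the start, the D-boxes of Per3 205 and 158 bases before it, the E-box of Per1 166 bases before it, and the 3 E-boxes of Ciart 116, 58 and 44 bases before it. Arntl fell at ZT12, while Per3, Per1 and Ciart rose. Windows were at hand for 8316 tested genes (10622 windows), among them 74 that rose (97 windows) and 75 that fell (106 windows). The E-box was in 10.24% of all windows, against 13.4% of the windows of genes that rose and 11.32% of those of genes that fell. The RORE was in 1.808% of all windows, 2.062% of those that rose and 3.774% of those that fell, with Arntl, Leo1, Mif4gd and Nfil3 as the genes that fell. A D-box was in 0.6873% of all windows, and among the genes called only in those of Per3. The CRE was in 3.173% of all windows, 1.031% of those that rose and 6.604% of those that fell. For the genes that rose and fell, the RORE shares rest on 2 and 4 windows and the CRE shares on 1 and 7. A match describes letters and is not a measured site, and no test was made of these shares.

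The 7 libraries held 25.48 to 31.29 M reads, as recovered from the steps between the lowest FPKM values, and mitochondrial transcripts took 15.31% to 21.22% of them. The first principal component, with 23.84% of the variance, placed the ZT0 libraries at -34.28 to -5.26 and the ZT12 libraries at 22.78 to 33.01. The second component, with 21.1%, ran within the ZT0 group, from -32.52 in library 3 to 39.95 in library 2. Skeletal muscle identity genes summed to 31020 to 37550 FPKM at ZT0 and 31230 to 39210 at ZT12, and genes of fast fibres to 58950 to 67910 and 54090 to 59690. Fast-fibre sums lay far above the sums of slow-fibre genes, 66.2 to 160.6 and 72.42 to 129.7. Neutrophil markers summed to at most 0.453 FPKM and lymphocyte markers to at most 0.8738, and S100a8, Ly6g, Retnlg, Cd3d, Cd3g, Cd79a and Ms4a1 were at 0 or not in the table used here. The summed level of none of 13 marker lists separated the times. The overlap was narrow for adipocyte markers, at 72.56 to 84.61 FPKM at ZT0 and 65.76 to 72.75 at ZT12. RNA of whole muscle cannot tell fewer cells of a type from less RNA per cell.

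With limma and a Benjamini-Hochberg adjusted p under 0.05, 187 genes passed, 1.63% of those tested. The 88 that rose were 0.769% and the 99 that fell 0.865%. The groups did not overlap for any of the 187 genes, and they did not overlap for 12.6% of all genes tested. The median absolute log2 difference was 0.9652 among the 187 genes and 0.1326 among all. At least 2-fold were 42 of the genes that rose and 46 of those that fell, and at least 4-fold 8 and 7. Protein-coding genes made up 169 of the 187, and 88.8% of all genes tested. The count fell most without a ZT12 library, to 70 without library 5, 77 without library 6 and 78 without library 7, and was 93 without ZT0 library 4. All 187 genes kept their sign in each of these 7 fits with 1 library left out, and 49 passed in all 7, of which 24 rose and 25 fell. Of the 73 genes chosen by the naming rule, 26 share exon bases with another annotated gene, among them Bhlhe41 (1280 bases with Gm43909), Acsl1 (1039 with Gm45244) and Pim1 (488 with Gm26885), all on the opposite strand, so that their reads cannot be told apart if the counting did not use strand.

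**Figure D1:**
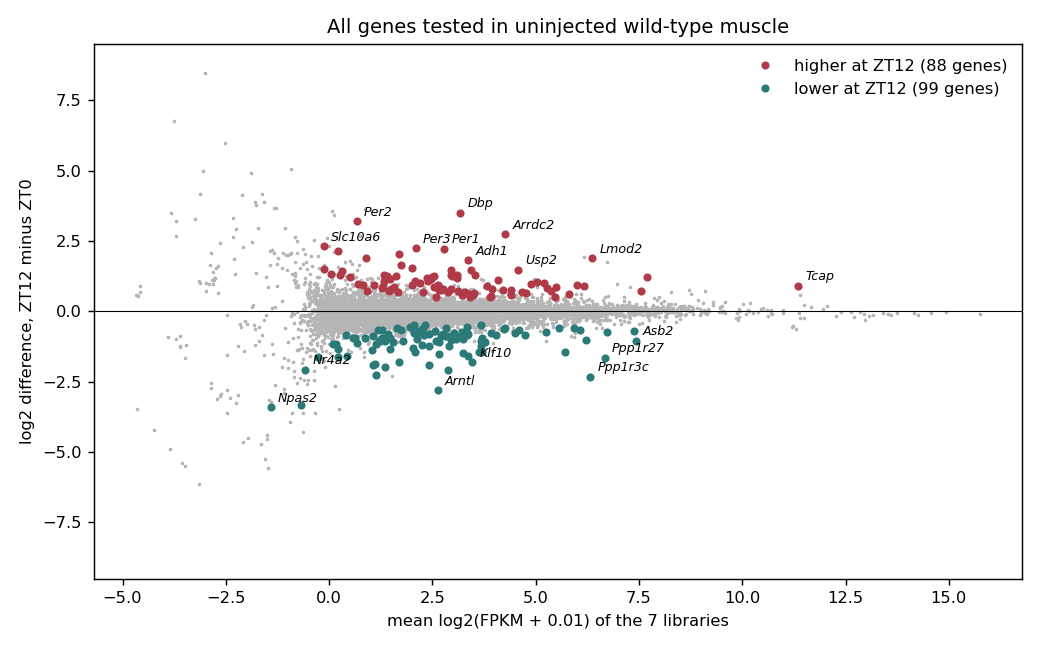
Log2 difference between ZT12 and ZT0 against the mean log2(FPKM + 0.01) of the 7 libraries, one point a gene, with the 88 genes that rose in red and the 99 that fell in green. Genes of high level, such as Tcap and Asb2, passed beside genes whose mean was under 1 FPKM, such as Npas2 and Slc10a6, and the widest grey scatter lies at the lowest levels.

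Of 4 clock activators tested, Arntl, Clock and Npas2 fell and Arntl2 did not pass, where 0.865% of all genes fell. Arntl (ENSMUSG00000055116) had 15.1, 14.4, 11.7 and 15.7 FPKM in ZT0 libraries 1 to 4 and 1.94, 1.94 and 2.22 FPKM in ZT12 libraries 5 to 7. The ZT12 libraries were close together and well below the lowest ZT0 library. Its log2 difference was -2.80 ± 0.13 (SE), or 6.94-fold lower (limma adjusted p = 3.45e-05), the smallest p of the comparison. Npas2, the stand-in for Clock, had 1.14, 1.39, 0.757 and 0.906 FPKM at ZT0 and 0.0944, 0.106 and 0.0656 FPKM at ZT12. It was nearly silent in each ZT12 library, with a log2 difference of -3.41 ± 0.53 (limma adjusted p = 0.016). Its ZT0 libraries alone took it past the filter of 1 FPKM. Clock itself had 3.55, 3.57, 4.20 and 4.91 FPKM at ZT0 and 1.87, 2.21 and 1.63 FPKM at ZT12, again without overlap (log2 -1.08 ± 0.16, limma adjusted p = 0.0132). Per length, Arntl stood above Clock at ZT0, and at ZT12 both were near 2 FPKM, 2.03 ± 0.16 (SD, n = 3) and 1.90 ± 0.295. Arntl2, a paralog of Arntl, ranged from 0.807 to 1.46 FPKM at ZT0 and from 1.27 to 1.39 at ZT12 (log2 0.28, 95% CI -0.28 to 0.83). Arntl passed with any 1 library left out. Npas2 did not pass without ZT0 library 1, 2 or 4 (log2 -3.36, -3.26 and -3.46), nor Clock without ZT12 library 5 or 7 (log2 -1.08 and -0.98).

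The repressors rose, with the exception of Cry1. Of 6 genes tested, Per1, Per2, Per3, Cry2 and Ciart rose, where 0.769% of all genes rose. Per2 had 0.755, 0.555, 0.611 and 0.522 FPKM at ZT0 and 6.34, 5.30 and 5.38 FPKM at ZT12. It went from under 1 FPKM in each ZT0 library to over 5 in each ZT12 library, a log2 difference of 3.20 ± 0.17 (limma adjusted p = 9.13e-05). Per3 had 2.61, 1.57, 2.86 and 1.96 FPKM at ZT0 and 10.3, 9.68 and 11.3 at ZT12 (log2 2.24 ± 0.20, limma adjusted p = 0.0017). Per1, which also answers to glucocorticoids and cyclic AMP, was the most spread of the Per genes at ZT12. It had 2.80, 3.13, 3.39 and 5.36 FPKM at ZT0 and 12.6, 17.2 and 21.1 at ZT12 (log2 2.22 ± 0.24, limma adjusted p = 0.00378). Ciart, a repressor of the Clock and Arntl pair, had 0.957, 0.873, 1.08 and 1.33 FPKM at ZT0 and 3.0, 3.83 and 5.18 at ZT12 (log2 1.89 ± 0.22, limma adjusted p = 0.00531). These 4 genes passed with any 1 library left out.

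The cryptochromes stood apart from the Per genes in size and from each other in sign. Cry2 had 3.91, 2.58, 2.82 and 2.94 FPKM at ZT0 and 5.46, 5.09 and 7.03 at ZT12. All ZT12 libraries were above all ZT0 libraries, with a log2 difference of 0.94 ± 0.17 (limma adjusted p = 0.0333), but the gene passed in only 1 of the 7 fits with a library left out (log2 0.80 to 1.06), that without ZT0 library 1. Cry1 had 7.97, 7.56, 8.62 and 7.85 FPKM at ZT0 and 5.85, 6.07 and 6.12 at ZT12. Its groups did not overlap either, and the lower ZT12 values gave a log2 difference of -0.41 (95% CI -0.62 to -0.20, limma adjusted p = 0.073) that missed the threshold. It passed when the spread was taken from all 4 wild-type groups, a setting under which Acsl1, Atp1b1, Mrln and Slc25a34 lost their call, and with array weights, under which Glul did.

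Of the D-box factors, Dbp and Tef rose, Nfil3 fell and Hlf did not pass, where 0.769% of all genes rose and 0.865% fell. Dbp, an activator on D-boxes, had 3.61, 2.68, 4.42 and 2.36 FPKM at ZT0 and 35.1, 30.4 and 44.2 at ZT12. No other gene that passed rose by as much (log2 3.51 ± 0.22, limma adjusted p = 0.000234). Dbp shares 539 exon bases with Sphk2 on the opposite strand, which fell (log2 -0.57, limma adjusted p = 0.043) from 3.54 to 3.86 FPKM at ZT0 to 2.21 to 2.70 at ZT12 and passed in 0 of 7 fits with a library left out (log2 -0.63 to -0.49). Whether the counting used strand is not given in the sources used here. Tef, a related activator, had 22.7, 19.8, 30.0 and 24.3 FPKM at ZT0 and 47.9, 48.6 and 51.4 at ZT12 (log2 1.04 ± 0.14, limma adjusted p = 0.00903). Per length, Tef was the higher of both at each time. Nfil3, the repressor on the same element, had 19.9, 11.8, 11.1 and 17.3 FPKM at ZT0 and 4.46, 5.73 and 5.55 at ZT12 (log2 -1.48 ± 0.21, limma adjusted p = 0.0119). Its ZT12 libraries were all below its lowest ZT0 library, and without ZT12 library 5 it did not pass (log2 -1.37). Hlf had 1.37, 0.468, 1.24 and 0.948 FPKM at ZT0 and 2.92, 1.81 and 1.57 at ZT12, with no overlap but a wide interval (log2 1.11, 95% CI 0.26 to 1.96, limma adjusted p = 0.244).

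In the loop of REV-ERB, ROR and DEC factors, Nr1d2 and Bhlhe41 rose of 6 genes tested, where 0.769% of all genes rose, and Rorb was not tested. Nr1d2 (REV-ERB beta) had 22.4, 18.1, 27.2 and 21.8 FPKM at ZT0 and 42.8, 47.8 and 39.6 at ZT12 (log2 0.97 ± 0.14, limma adjusted p = 0.0132). It did not pass without ZT12 library 5 or 6 (log2 0.97 and 0.89). Nr1d1 (REV-ERB alpha), its paralog, overlapped between the times, at 26.6, 29.5, 26.4 and 24.5 FPKM at ZT0 and 20.5, 16.6 and 28.7 at ZT12 (log2 -0.32, 95% CI -0.71 to 0.07). So the paralogs, at like levels at ZT0, stood at 43.4 ± 4.16 and 21.9 ± 6.18 FPKM at ZT12 (SD, n = 3). Only ZT0 and ZT12 were sampled, so a gene alike at both may still change in between. Nr1d1 shares 263 exon bases with Thra on the opposite strand. Bhlhe41 (DEC2), an E-box repressor, had 3.79, 4.03, 6.00 and 4.57 FPKM at ZT0 and 8.79, 7.12 and 8.88 at ZT12 (log2 0.86 ± 0.17, limma adjusted p = 0.0427), and passed only in the 1 of 7 fits that left out ZT0 library 3 (log2 0.77 to 1.0 over the 7). Bhlhe40 (DEC1) overlapped, from 26.0 to 38.2 FPKM at ZT0 and 26.9 to 32.8 at ZT12. The ROR activator Rora overlapped as well (log2 0.22, 95% CI -0.16 to 0.60).

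**Figure D2:**
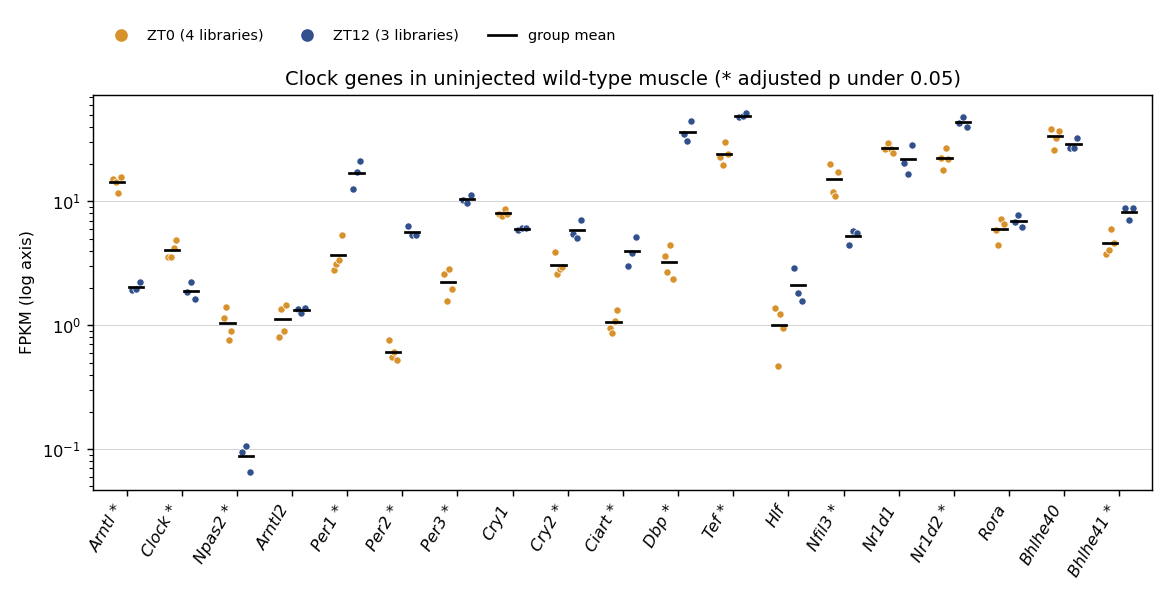
FPKM on a log axis of 19 of the 20 clock genes tested, one point a library, ZT0 in orange and ZT12 in blue, with group means as bars and an asterisk where the adjusted p was under 0.05. Arntl, Clock, Npas2 and Nfil3 lie lower at ZT12, and Per1 to Per3, Cry2, Ciart, Dbp, Tef, Nr1d2 and Bhlhe41 higher.

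Usp2, a deubiquitinase that acts on clock proteins, was the only one of 26 genes of clock protein turnover and clock kinases to pass. It had 17.4, 13.1, 15.6 and 15.7 FPKM at ZT0 and 37.5, 39.2 and 54.2 at ZT12 (log2 1.48 ± 0.15, limma adjusted p = 0.00291), and passed with any 1 library left out. The median log2 difference of the 26 genes was 0.06, and the other 25 did not pass. Of 22 genes known as clock output in muscle, 5 rose (Tcap, Tspan4, Dgat2, Wee1 and Usp2) and 3 fell (Ppp1r3c, Leo1 and Asb2), against 1.63% of all genes in either direction. This list, like all gene lists here, was chosen with earlier results of these data known, so the counts are not independent. Lists also share members, so the same gene can be counted again, as Usp2 is here. Tspan4, a tetraspanin, went from 3.87 to 4.17 FPKM at ZT0 to 7.92 to 10.9 at ZT12 (log2 1.27 ± 0.13), and Leo1, a subunit of the PAF1 complex of transcription, from 9.70 to 13.1 to 5.44 to 5.93 (log2 -0.98 ± 0.12). Wee1, a kinase that holds back mitosis, rose from 1.03 to 1.36 FPKM to 2.00 to 2.85 (log2 0.99 ± 0.18, limma adjusted p = 0.0329), and passed in 2 of 7 fits with a library left out, those without ZT0 library 2 or 3 (log2 0.86 to 1.11 over the 7).

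Outside the clock the largest rise was that of Arrdc2, an arrestin-domain gene induced by glucocorticoids. It had 4.91, 7.81, 6.32 and 21.6 FPKM at ZT0 and 39.9, 62.9 and 72.3 at ZT12. ZT0 library 4 was well above the other ZT0 libraries but still below every ZT12 library. The difference was 6.65-fold (log2 2.73 ± 0.45, limma adjusted p = 0.0207) and did not pass without ZT0 library 2 or 3 or ZT12 library 6 or 7 (log2 2.69, 2.59, 2.66 and 2.56). Slc10a6, a carrier of steroid sulfates, had 0.377, 0.581, 0.293 and 0.647 FPKM at ZT0 and 1.90, 2.46 and 2.52 at ZT12 (log2 2.31 ± 0.31, limma adjusted p = 0.00963), and did not pass without ZT12 library 6 or 7 (log2 2.25 and 2.23). Slc10a6 was under 1 FPKM in all ZT0 libraries and above it in all ZT12 libraries.

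Lmod2, which nucleates and lengthens the thin filaments of the sarcomere, had the largest rise among genes past the test with a mean above 100 FPKM at ZT12. Lmod2 (ENSMUSG00000029683, GRCm38 chromosome 6, 24597762 to 24605414) had 57.5, 41.9, 36.6 and 54.9 FPKM at ZT0 and 165, 182 and 174 at ZT12. The ZT12 libraries were close together and far above the highest ZT0 library, a 3.71-fold difference (log2 1.89 ± 0.16, limma adjusted p = 0.0017). Adh1, an alcohol dehydrogenase, had 6.51, 4.37, 6.66 and 6.83 FPKM at ZT0 and 22.7, 18.6 and 22.3 at ZT12 (log2 1.81 ± 0.17, limma adjusted p = 0.00207). Nceh1, a cholesteryl ester hydrolase, had 2.1, 1.93, 3.47 and 2.89 FPKM at ZT0 and 7.93, 7.37 and 7.08 at ZT12 (log2 1.56 ± 0.20, limma adjusted p = 0.00679). Cep85l, a centrosomal protein gene, rose from 1.58 to 2.50 FPKM to 5.10 to 7.50 (log2 1.65 ± 0.19), and shares 141 exon bases with Pln on the opposite strand. Lmod2, Adh1, Nceh1 and Cep85l passed with any 1 library left out.

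Among the largest falls, Ppp1r3c, which brings a phosphatase to glycogen and favours its storage, had 169, 94.9, 196 and 204 FPKM at ZT0 and 31.9, 36.6 and 27.5 at ZT12. ZT0 library 2 was lowest at that time and still far above every ZT12 library (log2 -2.32 ± 0.25, limma adjusted p = 0.00377). Of 21 genes of glycogen metabolism it alone passed, where 1.63% of all genes passed in either direction, and the list's median was -0.01. Ppp1r27, another phosphatase regulator, had 230, 199, 148 and 112 FPKM at ZT0 and 61.4, 45.6 and 53.0 at ZT12 (log2 -1.65 ± 0.23, limma adjusted p = 0.0114), and did not pass without ZT12 library 6 (log2 -1.54). Pnpla3, a lipid-droplet enzyme, had 10.4, 11.2, 6.41 and 10.8 FPKM at ZT0 and 2.27, 3.04 and 2.32 at ZT12 (log2 -1.91 ± 0.21, limma adjusted p = 0.00377). Wsb1, part of a ubiquitin ligase, had 13.9, 19.7, 14.9 and 17.8 FPKM at ZT0 and 5.03, 6.41 and 5.13 at ZT12 (log2 -1.58 ± 0.15, limma adjusted p = 0.00207). Slc38a4, an amino acid carrier, fell from 16.7 to 23.7 FPKM to 6.59 to 7.30 (log2 -1.46 ± 0.13), Slc16a9, a carnitine carrier, from 1.87 to 2.38 to 0.569 to 0.825 (log2 -1.58 ± 0.19), and Rnase13 from 2.79 to 4.21 to 0.937 to 1.09 (log2 -1.87 ± 0.17). Ppp1r3c, Pnpla3, Wsb1, Slc38a4, Slc16a9 and Rnase13 passed with any 1 library left out.

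**Figure D3:**
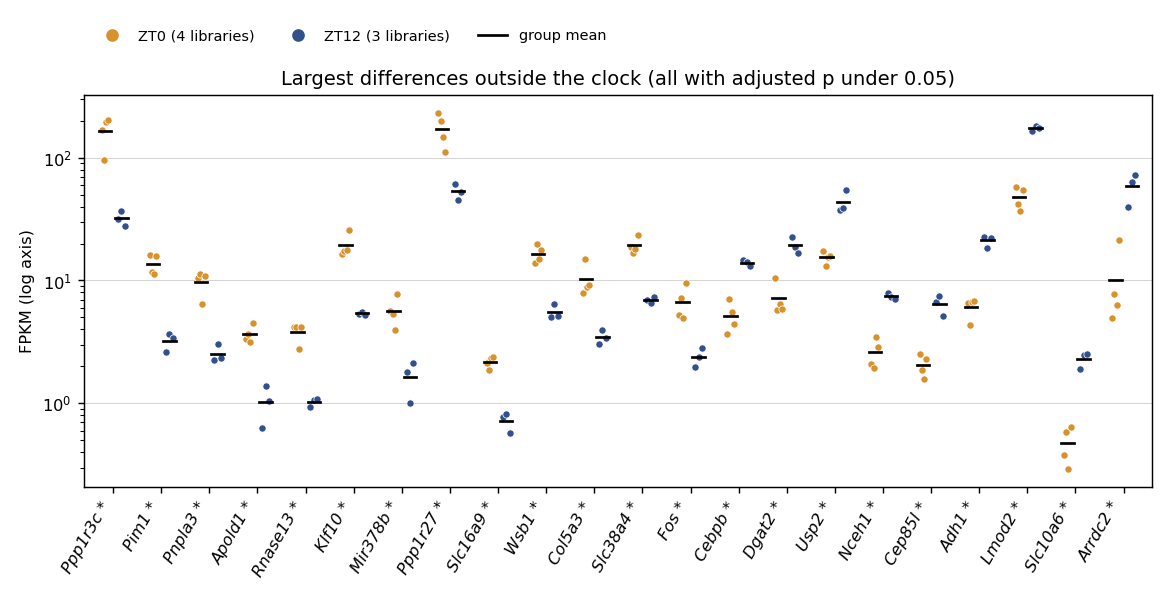
FPKM on a log axis of 22 genes outside the core clock from among the 15 largest falls (left) and 15 largest rises (right), one point a library, ZT0 in orange and ZT12 in blue, with group means as bars. No gene has overlapping groups, and the ZT0 libraries of Arrdc2 are the most spread.

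The 15 largest falls held 1 microRNA gene, Mir378b, whose mature sequence is shown with its seed, bases 2 to 8, in capitals (RefSeq, GRCm38.p6, chr11:88352839-88352858, plus strand).
mmu-miR-378b: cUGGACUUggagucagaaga

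Mir378b had 5.62, 5.37, 3.94 and 7.71 FPKM at ZT0 and 1.79, 1.01 and 2.14 at ZT12 (log2 -1.81 ± 0.28, limma adjusted p = 0.0175), and did not pass without ZT12 library 5 (log2 -1.90), with no filter, with the spread of all 8 groups or with limma-voom on recovered reads (adjusted p 0.0715, 0.747 and 0.16). The gene is 92 bases long, shorter than the 150-base reads, so its FPKM describes fragments over the hairpin and not the mature RNA.

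In lipid metabolism the genes that passed rose in the list of use and were mixed in that of synthesis. Of 34 genes of fatty acid use, Plin5, Acot2, Mlycd and Acsl1 rose and none fell, where 0.769% of all genes rose, and 29 of 34 were above 0 with a median log2 difference of 0.26, against -0.01 over all genes. Differences in the list ran from -1.42, in a gene that did not pass, to 1.29. Plin5, which holds lipid droplets to mitochondria, had 5.48, 3.96, 7.03 and 4.92 FPKM at ZT0 and 11.8, 12.2 and 14.6 at ZT12 (log2 1.29 ± 0.18, limma adjusted p = 0.0114), and did not pass without ZT12 library 7 (log2 1.19). Acot2, a mitochondrial thioesterase, had 4.16, 3.39, 3.02 and 3.89 FPKM at ZT0 and 6.72, 8.01 and 10.4 at ZT12 (log2 1.20 ± 0.17, limma adjusted p = 0.0114). Mlycd, which removes the malonyl-CoA that blocks fatty acid entry into mitochondria, rose from 18.8 to 22.9 FPKM to 31.2 to 34.7 (log2 0.67 ± 0.11), and Acsl1, which activates fatty acids, from 18.8 to 24.8 to 34.0 to 37.0 (log2 0.67 ± 0.12). Mlycd did not pass without any of the ZT12 libraries (log2 0.62 to 0.72 over 7 fits), and Acsl1 passed only without ZT0 library 1 or 3 (log2 0.59 to 0.72).

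Of 23 genes of fatty acid and triglyceride synthesis, Dgat2 rose and Srebf1 and Pnpla3 fell, where 1.63% of all genes passed in either direction, and the median was -0.12. Dgat2, which adds the last chain of triglyceride, had 10.4, 5.79, 6.42 and 5.87 FPKM at ZT0 and 22.5, 18.8 and 16.8 at ZT12 (log2 1.47 ± 0.21, limma adjusted p = 0.0114), and did not pass without ZT12 library 5 (log2 1.36). Srebf1, a transcription factor of lipid synthesis, fell from 9.13 to 14.3 FPKM to 5.04 to 7.02 (log2 -0.91 ± 0.17, limma adjusted p = 0.0368) and passed in 1 of 7 fits with a library left out, that without ZT0 library 4 (log2 -1.02 to -0.78 over the 7). In cholesterol synthesis, Insig1, which holds SREBP proteins back, fell from 4.96 to 6.17 FPKM to 3.16 to 3.85 (log2 -0.68 ± 0.12, limma adjusted p = 0.0309) and passed in 0 of 7 such fits (log2 -0.76 to -0.62). It was the only one of 18 genes to pass, and 15 of the 18 were below 0 with a median of -0.22.

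Of 24 genes of glucose uptake, the arrestin-domain genes Txnip and Arrdc4, which restrain glucose uptake, fell and none rose, where 0.865% of all genes fell. Txnip had 194, 181, 202 and 254 FPKM at ZT0 and 120, 119 and 143 at ZT12 (log2 -0.70 ± 0.13, limma adjusted p = 0.0414). Arrdc4 went from 3.02 to 4.90 FPKM to 1.72 to 2.14 (log2 -0.95 ± 0.18, limma adjusted p = 0.0427). Neither gene overlapped between times. Each passed in only 1 of 7 fits with a library left out, Txnip without ZT0 library 2 (log2 -0.79 to -0.60 over the 7) and Arrdc4 without ZT0 library 3 (log2 -1.04 to -0.81), and Arrdc4 also did not pass with no filter, an equal sum of FPKM, no trend, age as a covariate or limma-voom on recovered reads (adjusted p 0.0514 to 0.124). Txnip shares 606 exon bases with an antisense gene. None of 19 glycolysis genes passed, with log2 differences from -1.39 to 1.02. Among 30 mitochondrial carriers 1 fell and 2 rose, where 1.63% of all genes passed in either direction. Slc25a36, a pyrimidine nucleotide carrier, fell from 9.05 to 11.8 FPKM to 4.36 to 5.10 (log2 -1.22 ± 0.12, limma adjusted p = 0.0027) and passed with any 1 library left out. Slc25a33, a carrier of the same kind, rose from 4.54 to 6.38 FPKM to 8.93 to 9.62 (log2 0.80 ± 0.13), and Slc25a34 from 2.37 to 4.28 to 6.17 to 7.47 (log2 1.02 ± 0.19). Neither passed without a ZT12 library or ZT0 library 4, nor Slc25a34 without ZT0 library 3 (log2 0.72 to 0.89 and 0.84 to 1.13). None of 45 nuclear genes of oxidative phosphorylation and 15 of the mitochondrial genome passed, with medians of 0.09 and -0.08.

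Genes induced by glucocorticoids, hormones that rise before the active phase of the mouse, gave 4 rises and no fall among 24 tested, where 0.769% of all genes rose, with a median of 0.34 and 18 above 0. Beside Per1 and Arrdc2, these were Cebpb and Glul. The lowest log2 difference in the list was -1.42, in a gene that did not pass. Cebpb, a transcription factor, had 3.66, 7.06, 5.55 and 4.45 FPKM at ZT0 and 14.6, 14.2 and 13.0 at ZT12 (log2 1.47 ± 0.20, limma adjusted p = 0.00969), and passed with any 1 library left out. Glul, which makes glutamine, had 50.5, 45.6, 45.4 and 55.0 FPKM at ZT0 and 66.9, 101 and 118 at ZT12 (log2 0.92 ± 0.18, limma adjusted p = 0.043). Library 5 lay nearest the ZT0 range, and only without it did Glul pass when a library was left out (log2 0.75 to 1.15 over 7 fits). Glul and Slc38a4, which fell, were the 2 of 21 genes of amino acid and nitrogen use to pass. Over all genes, 1.63% passed in either direction.

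Of 24 immediate early genes, which cells switch on within minutes of a stimulus, Fos, Ier2, Klf2, Klf4 and Klf10 fell and none rose, where 0.865% of all genes fell, and 17 of 24 were below 0 with a median of -0.26. Klf10 had 16.3, 17.5, 17.6 and 25.9 FPKM at ZT0 and 5.36, 5.55 and 5.26 at ZT12. Its ZT12 libraries were nearly equal, and ZT0 library 4 stood above the others (log2 -1.81 ± 0.16, limma adjusted p = 0.0017). Fos, a part of the AP-1 factor, had 5.2, 7.17, 4.94 and 9.49 FPKM at ZT0 and 1.96, 2.38 and 2.82 at ZT12 (log2 -1.45 ± 0.23, limma adjusted p = 0.0186). Ier2 had 7.97, 10.5, 7.90 and 7.71 FPKM at ZT0 and 4.16, 4.56 and 5.01 at ZT12 (log2 -0.89 ± 0.13, limma adjusted p = 0.0147). Fos and Ier2 did not pass without ZT12 library 5 (log2 -1.32 and -0.82) or 6 (log2 -1.46 and -0.89). Of 13 targets of CREB, the factor activated by cyclic AMP, Pim1 and Nr4a2 fell, where 0.865% of all genes fell, 10 were below 0 and the median was -0.64. Pim1, a kinase, had 16.1, 11.8, 11.3 and 15.7 FPKM at ZT0 and 2.63, 3.65 and 3.40 at ZT12 (log2 -2.08 ± 0.17, limma adjusted p = 0.0017), and passed with any 1 library left out. Nr4a2, a nuclear receptor, had 0.927, 1.56, 0.996 and 1.59 FPKM at ZT0 and 0.273, 0.479 and 0.174 at ZT12 (log2 -2.08 ± 0.41, limma adjusted p = 0.0427), and passed in 1 of 7 fits, that without ZT12 library 6 (log2 -2.44 to -1.74 over the 7).

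Upstream of CREB, 1 of 19 genes from the beta-adrenergic receptor to cyclic AMP rose, against 0.769% of all genes, and the median was -0.08. This was Gnas, the gene of the stimulatory G protein, with 1.34, 2.74, 1.46 and 1.55 FPKM at ZT0 and 4.75, 4.71 and 3.32 at ZT12 (log2 1.30 ± 0.25, limma adjusted p = 0.0427). It passed in 1 of 7 fits with a library left out, that without ZT0 library 2 (log2 1.19 to 1.53 over the 7). It shares 1469 exon bases with Gm20721 and 988 with the antisense RNA Nespas, so its reads cannot be told from theirs without strand.

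Of 19 genes of endothelial flow response and barrier, Klf2, Klf4, Apold1, Cldn5 and Apln fell and none rose, where 0.865% of all genes fell, 17 were below 0, and the median was -0.25. Klf2 and Klf4 were counted among the immediate early genes as well. Klf2, the flow-induced factor of endothelial cells, had 20.6, 15.9, 23.8 and 19.6 FPKM at ZT0 and 7.39, 7.79 and 6.89 at ZT12 (log2 -1.43 ± 0.14, limma adjusted p = 0.00246). Apold1, an early response gene of the endothelium, had 3.37, 3.65, 3.16 and 4.48 FPKM at ZT0 and 0.626, 1.40 and 1.05 at ZT12 (log2 -1.89 ± 0.26, limma adjusted p = 0.00961). Both were lower in every ZT12 library and passed with any 1 library left out. Apln, a secreted peptide of endothelial cells, had 2.29, 2.69, 2.09 and 1.89 FPKM at ZT0 and 0.966, 1.1 and 0.998 at ZT12 (log2 -1.11 ± 0.17, limma adjusted p = 0.0137), and did not pass without ZT12 library 5 or 7 (log2 -1.07 and -1.1). Klf4 had 10.1, 4.62, 6.88 and 6.66 FPKM at ZT0 and 3.21, 3.13 and 2.63 at ZT12 (log2 -1.19 ± 0.23, limma adjusted p = 0.0409), and passed only without ZT0 library 1 or 2 (log2 -1.37 to -1.0 over 7 fits). Cldn5, a tight-junction protein whose values are given because it completes the count, had 15.0, 29.9, 14.4 and 17.6 FPKM at ZT0 and 6.54, 8.15 and 9.17 at ZT12 (log2 -1.22, limma adjusted p = 0.0463), and passed in 1 of 7 fits with a library left out, that without ZT0 library 2 (log2 -1.34 to -0.99 over the 7). It did not pass with no filter, quantile normalization, an equal sum of FPKM, the spread of all 8 groups, no trend or limma-voom on recovered reads. The 12 endothelial markers together summed to 120.9 to 219.9 FPKM at ZT0 and 117.9 to 150.1 at ZT12, so that the times overlapped, with ZT0 library 2 the highest. Of these markers 11 were below 0, with a median of -0.21, and Cldn5 alone passed. Macrophage markers summed to 32.19 to 73.55 and 27.58 to 48.83 FPKM, with 8 of 10 tested genes below 0, a median of -0.43 and none past the test. Markers of other types were also mostly below 0 with none past the test, among them 7 of 8 of slow fibres (median -0.455), 10 of 12 of fast fibres (-0.08), 7 of 7 of fibroblasts (-0.25), 4 of 5 of smooth muscle (-0.12), 5 of 5 erythroid (-0.29) and 3 of 3 of Schwann cells (-0.31). Fibroblast markers summed to 191.7 to 323.0 FPKM at ZT0 and 126.0 to 269.2 at ZT12, erythroid markers to 142.7 to 226.1 and 127.4 to 178.6, and Schwann cell markers to 14.91 to 32.19 and 15.68 to 19.98. The part of any of these cell types in the falls was not tested.

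Next are the lists of protein removal, growth and the muscle fibre. The share of all genes that passed in either direction was 1.63%. Of 20 atrophy ligases and FoxO factors, 2 fell, among them Asb2, and Fbxo21 rose. Asb2, a subunit of a ubiquitin ligase high in muscle, had 320, 188, 246 and 200 FPKM at ZT0 and 111, 112 and 119 at ZT12 (log2 -1.04 ± 0.17, limma adjusted p = 0.0231), and passed only without ZT0 library 1, 2 or 4 (log2 -1.14 to -0.88 over 7 fits). Its ZT12 libraries were close together, and its ZT0 libraries were spread but all higher. Fbxo21 rose from 1.37 to 1.61 FPKM to 2.34 to 2.70 (log2 0.73 ± 0.13, limma adjusted p = 0.0327), and passed only without ZT0 library 2 (log2 0.69 to 0.79).

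For the lists that follow, too, the share over all genes was 1.63% in either direction. Of 27 growth signal genes Smad3, which carries myostatin and TGF-beta signals, fell (log2 -0.62 ± 0.12), and of 14 myogenic factors Eya1, a cofactor of fast-fibre genes, fell (log2 -0.66 ± 0.13). Of 32 genes of calcium handling 2 fell, among them Mrln, a peptide inhibitor of the calcium pump SERCA, which went from 15.3 to 21.5 FPKM to 6.69 to 11.3 (log2 -0.95 ± 0.19). Atp1b1, a subunit of the sodium pump, was 1 of 21 genes of sarcolemma transport to pass and rose from 49.6 to 67.9 FPKM to 88.5 to 117 (log2 0.89 ± 0.14). It shares 575 exon bases with Nme7. Cat, the catalase gene, was 1 of 28 antioxidant genes to pass and rose from 23.8 to 39.4 FPKM to 50.0 to 56.3 (log2 0.82 ± 0.16). Of 16 collagen genes Col5a3 fell, from 7.87 to 15.0 FPKM to 3.05 to 3.98 (log2 -1.52 ± 0.21, limma adjusted p = 0.0103), and did not pass without ZT12 library 5 (log2 -1.43) or with the spread of all 8 groups. Of the 16 collagens 14 were below 0, with a median of -0.25, as were 7 of 7 fibroblast markers, also with a median of -0.25, and the part of fibroblasts in the fall of Col5a3 was not tested. Limma adjusted p values of the other genes in this paragraph were 0.0182 for Atp1b1, 0.0427 for Smad3, 0.043 for Mrln and Cat, and 0.0433 for Eya1. Atp1b1 did not pass without ZT0 library 4 or ZT12 library 5 or 7 (log2 0.84, 0.88 and 0.79). The others passed in 1 of 7 such fits each, Smad3 and Eya1 without ZT0 library 2 (log2 -0.67 to -0.52 and -0.73 to -0.61 over the 7), Mrln without ZT12 library 6 (log2 -1.12 to -0.74) and Cat without ZT0 library 1 (log2 0.71 to 0.95).

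Of the 42 gene lists, 16 had no gene past the test. They included 28 heat shock genes (median -0.06), 5 cold-inducible genes (0.23), 20 of the unfolded protein response (0.06), 22 of the interferon response (-0.19), 14 of the neuromuscular junction (0.06), 36 of autophagy and lysosome (0.06), 43 cytosolic ribosomal proteins (0.06), 31 proteasome subunits (0.06) and 32 splicing factors (0.01). Ribosomal and proteasome genes had a narrow range, from -0.08 to 0.21 and from -0.14 to 0.26 on the log2 scale.

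**Figure D4:**
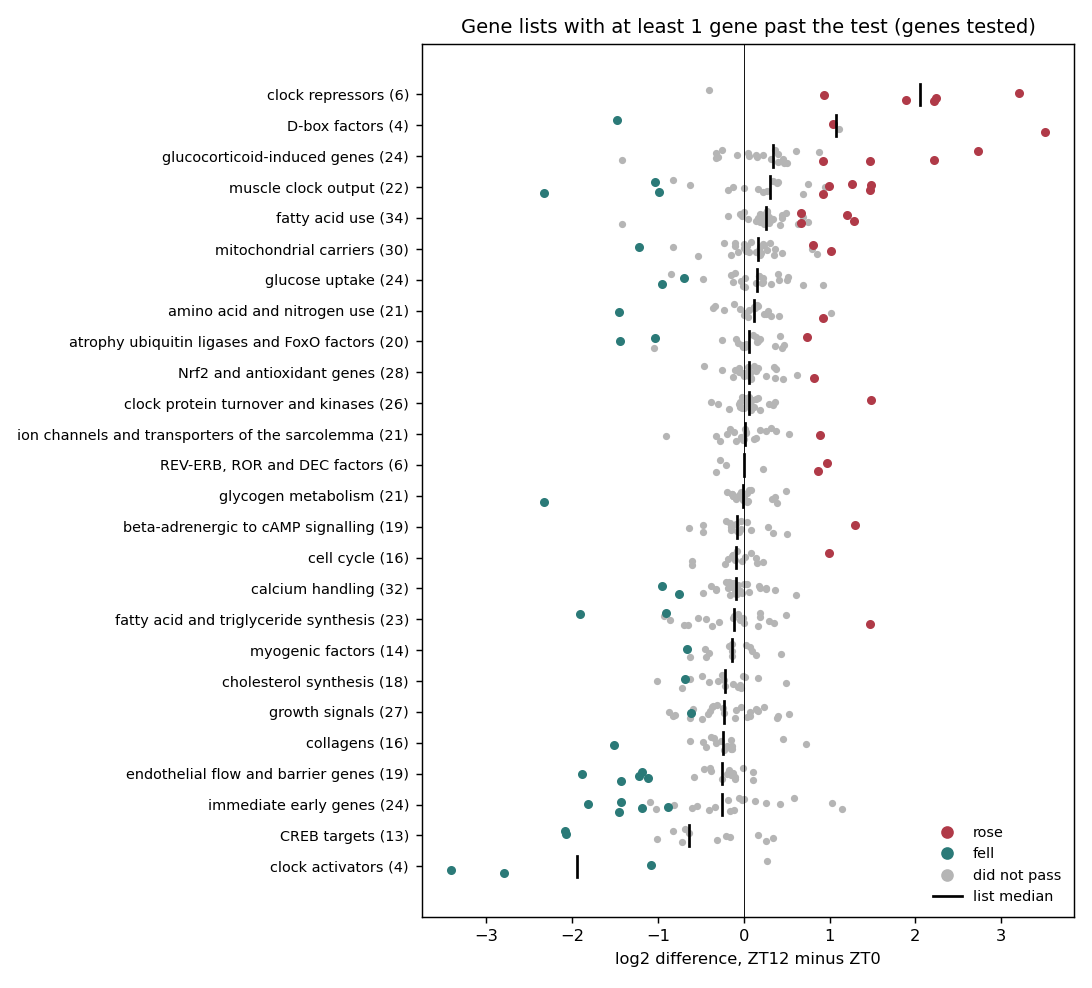
Log2 difference between ZT12 and ZT0 of each tested gene in the 26 lists with at least 1 gene past the test, ordered by the list's median (black bar), with genes that rose in red, that fell in green and that did not pass in grey. Clock repressors stand at the top and clock activators at the bottom, and in most other lists 1 to 5 coloured points lie at the edge of a grey cloud around 0.

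The injected muscle of wild-type mice gives a second measurement of the same times in other libraries. In 6-OHDA muscle 133 genes passed (1.16%), of which 108 rose and 25 fell. This split was 161 and 87 without ZT0 library 4 and 145 and 97 without ZT12 library 6 of the injected muscles. In both treatments 54 genes passed with the same sign, 28.9% of those called in sham and 40.6% of those called in 6-OHDA. Of the 88 genes that rose in sham, 41 also passed in 6-OHDA muscle, and the median log2 difference of all 88 was 0.96 in sham and 0.84 in 6-OHDA. Of the 99 that fell, 13 also passed, and the medians of all 99 were -0.98 and -0.40. Passing in sham chose these genes, which favours large sham differences, so the medians do not compare the treatments. With 1 injected library left out, 23 to 44 of the 88 and 8 to 25 of the 99 passed, and the 99 gave 25 without ZT0 library 4 and 22 without ZT12 library 6. With 1 of the 8 injected libraries left out, the count of 133 became 88, 84, 65 and 248 without ZT0 library 1, 2, 3 and 4, and 57, 242, 64 and 64 without ZT12 library 5, 6, 7 and 8. The sign was the same for 174 of the 187 genes, and for 61.5% of all genes tested. Arntl, Clock, Npas2, Per1, Per2, Per3, Cry2, Ciart, Dbp, Tef, Nr1d2 and Bhlhe41 passed in both treatments. Nfil3, which fell in sham, did not pass in 6-OHDA muscle (log2 -0.43, limma adjusted p = 0.400). The difference between its effects was 1.05 and did not pass either (limma adjusted p = 0.667). Hlf, which had not passed in sham, passed in 6-OHDA muscle (log2 2.39, limma adjusted p = 0.00068), but the difference between its effects was 1.28 (limma adjusted p = 0.721).

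A test of the difference between the treatments, over 15 libraries, was passed by 2 genes, 0.0175% of those tested, Klf2 and Apold1, and 682 genes had an unadjusted p under 0.05. In 6-OHDA muscle Klf2 had 13.7, 9.91, 11.6 and 9.36 FPKM at ZT0 and 19.7, 19.2, 21.0 and 11.0 at ZT12. Its level was thus lower at ZT12 in every sham library and higher in 3 of 4 injected ones than in any of their ZT0 libraries. The difference of the effects, 6-OHDA minus sham, was 2.07 on the log2 scale (95% CI 1.48 to 2.66, limma adjusted p = 0.0274). Apold1 had 2.47, 2.03, 1.91 and 1.94 FPKM at ZT0 and 2.85, 3.72, 4.72 and 2.14 at ZT12 in 6-OHDA muscle, a difference of effects of 2.52 (95% CI 1.74 to 3.29, limma adjusted p = 0.0319). The time effect within 6-OHDA muscle did not pass for Klf2 (log2 0.64) or Apold1 (log2 0.63). With 1 of the 15 libraries left out, Klf2 passed in 5 fits (adjusted p 0.0003369 to 0.1075) and Apold1 in 4 (0.008615 to 0.1145), with differences of 1.97 to 2.28 and 2.20 to 2.78. Both passed without sham ZT12 library 5, 6-OHDA ZT0 library 4 or 6-OHDA ZT12 library 8, Klf2 also without sham ZT0 library 2 or 6-OHDA ZT0 library 1, and Apold1 also without sham ZT12 library 6, and neither passed without any other library. Lmod2, with 72.9 to 168 FPKM at ZT0 and 143 to 206 at ZT12 in 6-OHDA muscle, had a difference of effects of -1.24 (95% CI -1.93 to -0.56) that did not pass (limma adjusted p = 0.473), and Pnpla3 one of 1.51 (95% CI 0.73 to 2.29, limma adjusted p = 0.436).

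**Figure D5:**
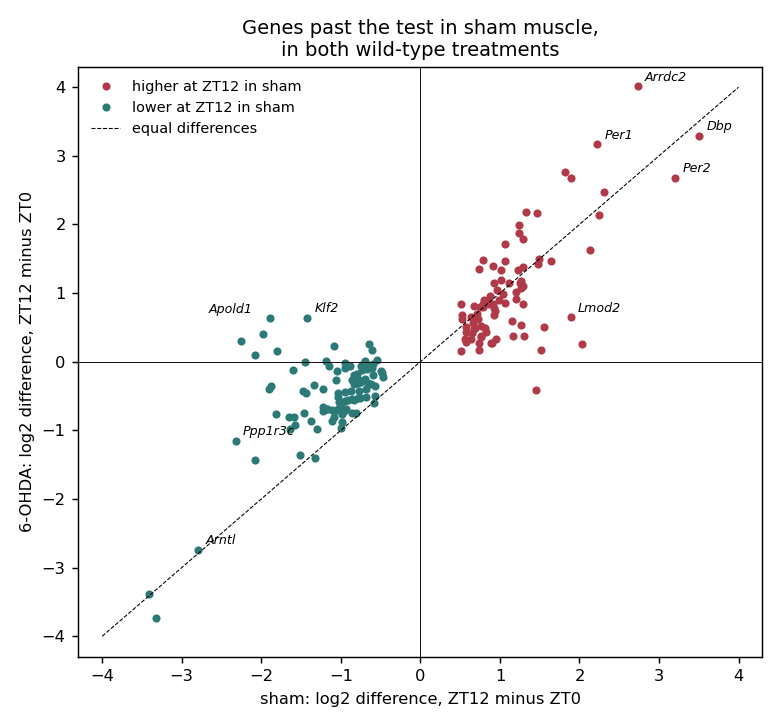
Log2 difference between ZT12 and ZT0 in 6-OHDA muscle (vertical) against that in sham muscle (horizontal) for the 187 genes that passed in sham, which chose them, with the dashed line at equal differences. Klf2 and Apold1 lie left of 0 and above it, and Arntl, Dbp and Per2 lie near the line.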

How the data were processed

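Whole tibialis anterior muscle was sequenced in pairs. The submitters' processing notes name HISAT2 2.1.0 and the GRCm38 genome, Trim Galore 0.5.0 with FastQC 0.11.8, and edgeR 3.30.0 beside featureCounts 1.6.2. The deposited values are log2(FPKM + 0.01) for 14500 genes in all samples, and any scaling between libraries by the authors is not given in the sources used here. No read counts were in the table used here, and 309 to 428 genes per library were at 0.

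GENCODE M21 gave names, positions and the exon length of 14435 genes. Reads were recovered from the steps of the lowest FPKM values, and among values of at most 20 reads 88.5% to 91.41% lay within 0.1 of a whole read, so the depth is an estimate. Tested genes reached 1 FPKM in 2 or more of the 7 libraries. Pus7l was just inside this limit (second-highest FPKM 1.00005) and Tent5a just outside (0.999737). The deposited log2 values were fitted with limma 3.58.1 in R 4.3.3 (lmFit, contrasts.fit, eBayes with a trend), with the spread of the wild-type sham libraries only, and p values were adjusted by Benjamini-Hochberg over all 11439 genes. A log2 difference on the log2(FPKM + 0.01) scale understates the fold of the lowest genes slightly, and folds are 2 to the power of the log2 difference. FPKM means and SD are linear. The 6-OHDA comparison and the difference between treatments used the same genes, the latter over the 15 wild-type libraries. The sham fit alone was run on simulated data, with normal noise drawn for each gene on its own. The 6-OHDA fit and the fit of the difference between treatments were not. Plots were drawn with matplotlib 3.10.9 and tables made with pandas 2.3.3 and numpy 2.4.6 in python 3.11.15.

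The comparison, gene lists, markers and tests were chosen with earlier results of these data known. Named genes are the 20 tested clock genes, the 15 largest rises and 15 largest falls past the test whose mean log2 FPKM reached 1 at either time and a proper gene symbol, and up to 4 genes past the test with the smallest p from every other list. Tcap, Cldn5 and Sphk2, and the genes of the last part, were chosen after their values were seen. Alternatives were a constant of 1 in place of 0.01, no filter, a filter on the mean log2 FPKM at 1, quantile normalization, an equal sum of FPKM, an equal median, the spread of the 4 wild-type or all 8 groups, no trend, a robust prior, array weights, age as a covariate, limma-voom on recovered reads, and leaving out each library. Genes of 300 bases or more, and an FPKM of at least 1 in every library of either group, were added after seeing the data. Batches are not given in the labels, and isoforms were not analysed here. The values of some genes that the rule names are withheld and not reported here.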

Additional observations from a re-analysis of the deposited data

Results flagged for a closer look

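In 6 of 73 named genes, 1 of the 4 ZT0 libraries lay apart from the other 3, by a gap that took most of the group's range (Dixon's test at the 95% level). Chance alone gives about 1 in 20 such groups. Library 2 was lowest for Adh1, at 4.366 FPKM against 6.509 for the next library, and highest for Ier2, at 10.49 against 7.974, and for Gnas, at 2.74 against 1.553. Library 1 was highest for Dgat2, at 10.45 FPKM against 6.424. Library 3 was lowest for Rnase13, at 2.786 against 4.154, and library 4 highest for Klf10, at 25.92 against 17.58. In each of these genes the separate ZT0 library was still on its group's side of all ZT12 libraries. The groups did not overlap for any of the 187 genes that passed, these 6 among them. This separation therefore says nothing particular about the separate libraries. Groups of 3, as at ZT12, were not examined in this way.

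For 2 genes the difference between ZT12 and ZT0 passed the limma test of a change between treatments, over the 15 wild-type libraries. It was 2.5192 higher on the log2 scale in 6-OHDA than in sham muscle for Apold1 and 2.0687 higher for Klf2. With 1 of the 15 libraries left out, Apold1 passed in only 4 fits and Klf2 in 5. Both genes were lower at ZT12 in all 3 sham libraries than in any sham ZT0 library.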

How the results depend on the processing

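The count of genes called at ZT12 against ZT0, 187, ranged from 70 to 166 when 1 library was left out. It was 114 with no filter, 82 with the spread of all 8 groups, 123 without a trend and 585 with array weights, and the cause was not tested. Under the other settings it lay between 146 and 276, with 30 of the 187 genes past the test in every setting. No named gene changed sign in any setting. Calls of named genes were lost with no filter (27 genes, among them Acsl1, Arrdc2, Arrdc4, Asb2, Atp1b1, Bhlhe41, Cat, Cry2, Dgat2, Eya1, Fos, Glul, Gnas, Insig1, Klf4, Mir378b, Mrln, Nfil3, Nr4a2, Ppp1r27, Slc25a34, Smad3, Srebf1, Txnip and Wee1) and with the spread of all 8 groups (29, among them Acot2, Acsl1, Adh1, Apln, Asb2, Atp1b1, Cat, Cebpb, Col5a3, Eya1, Fbxo21, Fos, Glul, Gnas, Klf2, Mir378b, Mlycd, Mrln, Nr1d2, Nr4a2, Plin5, Rnase13, Slc25a33, Slc25a34, Srebf1, Txnip and Wee1). Without a trend 18 lost theirs, among them Acsl1, Arrdc2, Arrdc4, Asb2, Bhlhe41, Cat, Cry2, Eya1, Glul, Gnas, Insig1, Klf4, Mrln, Slc25a34, Smad3, Srebf1 and Txnip. An equal sum of FPKM ended 12 (Acsl1, Arrdc4, Eya1, Fbxo21, Gnas, Ier2, Insig1, Nr4a2, Smad3, Srebf1, Txnip and Wee1) and age as a covariate 6 (Arrdc4, Bhlhe41, Cat, Glul, Gnas and Klf4). The spread of the 4 wild-type groups ended 4 (Acsl1, Atp1b1, Mrln and Slc25a34) and gave Cry1, voom ended 3 (Arrdc4, Insig1 and Mir378b), quantile normalization that of Eya1, the robust prior that of Arrdc2, and array weights that of Glul while giving Cry1 and Hlf. In 6-OHDA muscle the count, 133, ranged from 57 to 248 with 1 library left out (46 to 161 rises and 11 to 97 falls), and the count of differences between treatments, 2, from 0 to 6 (3 with log2(FPKM + 1)). No paired analysis was possible because the ZT0 libraries are numbered 1 to 4 and the ZT12 libraries 5 to 7, so that the groups share no number. Of the 187 genes, 14 passed the filter on low values through 1 time only (4 rose, 10 fell). Among them were Per2 and Slc10a6, which rose, and Npas2, Nr4a2, Slc16a9 and Spon2, which fell. Exon bases are shared with another gene by 58 of the 187, or 31.02%, against 35.52% of all genes tested. Genes near 1 FPKM rest on few reads, and 4 of the genes are shorter than 300 bases. The 3 libraries at ZT12 limit the precision. Sampling at ZT0 and ZT12 alone gives neither the size nor the peak time of a daily rhythm.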

Other observations

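Other genes past the test were chosen here after their values were seen. They are single genes, with no count of a group behind them. Tcap, a cap protein of the sarcomere's Z-disc, rose from 1667 to 2312 FPKM at ZT0 to 3440 to 4168 at ZT12 (log2 0.92, limma adjusted p = 0.0181), as the only one of 10 skeletal muscle identity genes to pass. None of 12 fast-fibre and 8 slow-fibre genes passed. Mylk4, a myosin light chain kinase, rose from 101 to 176 FPKM to 302 to 379 (log2 1.23, limma adjusted p = 0.0145). Among falls, Ank1, a muscle ankyrin, went from 25.3 to 30.5 FPKM to 15.8 to 18.1 (log2 -0.77, limma adjusted p = 0.00961), and Mybph, a myosin-binding protein, from 66.8 to 83.4 to 42.3 to 51.7 (log2 -0.60, limma adjusted p = 0.0426). Noct, a phosphatase of NADP(H) with a known daily rhythm, rose from 1.71 to 2.05 FPKM to 3.44 to 3.65 (log2 0.91, limma adjusted p = 0.00679). Acvr1b, a receptor of activin and myostatin, rose from 9.86 to 14.5 FPKM to 24.2 to 29.4 (log2 1.11, limma adjusted p = 0.00679).

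Fmo2, a monooxygenase, rose from 3.10 to 4.35 FPKM to 8.13 to 9.99 (log2 1.24, limma adjusted p = 0.00531), Gstt2, a glutathione transferase, from 1.70 to 2.52 to 4.29 to 5.57 (log2 1.26, limma adjusted p = 0.00679), and Sult1a1, a sulfotransferase, from 11.0 to 13.0 to 20.3 to 21.9 (log2 0.79, limma adjusted p = 0.00597). Aox1, Ephx1 and Cyp4b1 rose as well (log2 0.79, 0.67 and 0.87). Lipid-droplet coat gene Plin4 rose (log2 0.73), as did Mid1ip1, a regulator of lipid synthesis (log2 1.30). Spon2, a secreted matrix protein, had 1.41, 2.93, 1.2 and 1.55 FPKM at ZT0 and 0.140, 0.173 and 0.160 at ZT12 (log2 -3.33, limma adjusted p = 0.00507). Its mean log2 FPKM was under 1 at both times, which kept it from the largest falls. Of these genes, Noct, Acvr1b, Fmo2, Gstt2, Sult1a1 and Spon2 passed with any 1 library left out. Mylk4, Ank1 and Mid1ip1 passed in 5 of the 7 such fits, Aox1 in 4, Tcap in 3, Cyp4b1 and Plin4 in 2, Ephx1 in 1 and Mybph in 0.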
